A study of Mus musculus with 7 samples.

Results

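Liver transcripts of 10 genes of the methionine cycle and of betaine breakdown were examined (*Mat1a*, *Gnmt*, *Ahcy*, *Bhmt*, *Bhmt2*, *Chdh*, *Dmgdh*, *Sardh*, *Cbs* and *Cth*), out of 23347 genes in the count table. They were chosen by name, for the reactions their enzymes carry out, but with earlier results of these data known. All 10 passed the filter on low counts. RNA-seq had been performed on whole livers of 7 male mice on a C57BL/6 background, 1 library per mouse. In 4 of them, the *B4galt1* flox/flox controls, *B4galt1* carries loxP sites and is intact, although the sample labels call this group WT. The other 3 are labelled *B4galt1* hep-/-, in which an *Alb-Cre* transgene is meant to delete *B4galt1* in hepatocytes, since the albumin promoter that drives the Cre is active in these cells. The controls were littermates. Both groups had received the same choline-deficient, amino acid-defined, high-fat diet (CDAHFD), which is also low in methionine, for 15 weeks from the age of 6 to 8 weeks, so no mouse here represents a liver with a normal choline supply. Mice are numbered below as in the sample labels.

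The methionine cycle turns methionine into S-adenosylmethionine, the methyl donor of most methylation reactions, and recovers methionine from the homocysteine that is left afterwards. MAT1A makes S-adenosylmethionine in hepatocytes, GNMT spends it on glycine and so disposes of the excess, and AHCY splits the resulting S-adenosylhomocysteine into adenosine and homocysteine. Homocysteine is then either methylated again, with a methyl group from betaine (BHMT) or from folate (MTR), or sent to cysteine through CBS and CTH. Betaine comes from choline, whose oxidation in mitochondria begins with CHDH. Once BHMT has taken a methyl group, dimethylglycine and then sarcosine are oxidized by DMGDH and SARDH, which hand their electrons through the electron transfer flavoprotein to ETFDH. The liver is the main site of this pathway, and choline and methionine, its dietary sources of methyl groups, are what the CDAHFD withholds.

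*Bhmt2* and *Dmgdh* lie head to head on chromosome 13, and 133 bases separate their start sites in RefSeq (GRCm38.p6). An overlap between the window from 250 bases before to 50 bases after a start and such a window of a gene on the opposite strand was found for 11.9% of the 27025 genes listed, and among the 10 genes for *Bhmt2*, *Dmgdh*, *Chdh* and *Ahcy*. The stretch between the starts of *Bhmt2* and *Dmgdh* is shown because both transcripts were measured and can be set side by side. It lies at chr13:93674303-93674435, is written on the plus strand from *Bhmt2* to *Dmgdh*, and has in capitals the hexamer GGGCGG, here on the opposite strand, which is the core of the GC box. The sequence upstream of *Gnmt*, the gene with the largest difference among the 10, lies at chr17:46729212-46729415 on the minus strand, and its capitals mark the pentamer CCAAT, also on the opposite strand.
*Bhmt2* to *Dmgdh*: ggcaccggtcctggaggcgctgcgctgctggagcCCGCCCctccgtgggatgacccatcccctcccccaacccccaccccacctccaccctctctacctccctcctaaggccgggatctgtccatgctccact
*Gnmt*: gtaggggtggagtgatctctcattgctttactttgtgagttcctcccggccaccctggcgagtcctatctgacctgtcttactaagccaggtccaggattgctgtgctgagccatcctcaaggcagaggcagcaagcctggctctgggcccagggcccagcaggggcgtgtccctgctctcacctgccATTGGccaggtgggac

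RefSeq promoter windows were found for 8 of the 10 genes, but not for *Mat1a* and *Cth*. In the 250 bases before a start, searched on both strands, CCAAT occurred for *Gnmt*, *Ahcy*, *Bhmt* and *Cbs* and in 33.8% of all 32851 windows, and GGGCGG for *Ahcy*, *Bhmt2*, *Dmgdh*, *Chdh* and *Cbs* and in 32.7% of all windows. TATAAA was found in none of the 10 windows of the 8 genes and in 12.4% of all windows. These 3 motifs share no letters with one another in the sequences shown, each of which holds 1 of them, and a match of letters is a description only.

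Total counts ranged from 37838654 to 39668509 in flox/flox livers and from 30608271 to 34586588 in livers labelled hep-/-. Mitochondrially encoded genes took 3.88% to 8.0% of the counts in flox/flox livers and 14.4% to 22.6% in livers labelled hep-/-, without overlap. The targeted gene, *B4galt1*, was measured at 48.7, 53.0, 49.2 and 51.6 CPM (counts scaled to library size, normalized between libraries by TMM) in flox/flox mice 1 to 4. It was at 28.4, 23.9 and 53.7 CPM in labelled mice 1 to 3. By CPM, *B4galt1* was thus lower than in every control in labelled mice 1 and 2, whereas labelled mouse 3 was above all 4 controls. By FPKM (counts over library total and gene length), labelled mouse 3, at 11.9, was below all 4 controls (12.2 to 14.0). It was still above labelled mice 1 and 2 (6.47 and 6.52). The difference between the groups did not pass the test (log2 fold change -0.52 ± 0.256 (SE), adjusted p = 0.181, edgeR quasi-likelihood test). Without labelled mouse 3 the log2 fold change of *B4galt1* was -0.96 (adjusted p = 0.0139, edgeR), and with all 7 mice limma on log2(FPKM + 1) called it lower (-0.67, adjusted p = 0.0389). Labelled mouse 3 therefore goes against its label by CPM, while its rank against the controls depends on the scaling. Results for the 10 genes are also given without labelled mouse 3 where calls or directions change.

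Of the 10 genes, 2 were lower in the livers labelled hep-/- and 0 were higher. They were *Gnmt*, whose enzyme makes sarcosine from glycine, and *Sardh*, whose enzyme breaks sarcosine down, while *Dmgdh*, the other source of sarcosine here, was not called. Calls required both an adjusted p below 0.05 (edgeR, Benjamini-Hochberg over 15179 genes) and a log2 fold change beyond 0.58 in size. Among all genes tested, 7.83% were called lower and 8.00% higher, so that 50.5% of the calls were higher. With limma on log2(FPKM + 1), where the median of all genes moved by -0.12, 15.9% of all genes tested were called lower, 24.5% of the calls were higher, and 5 of the 10 genes were lower (*Gnmt*, *Sardh*, *Ahcy*, *Cth* and *Dmgdh*). By the unadjusted p, 3 of the 10 genes were under 0.05, all of them lower, *Cbs* being the third, as were 16.1% of all genes tested. For 9 of the 10 the log2 fold change was below 0, with a median of -0.55 beside 0.02 for all genes tested. In 3 genes, *Gnmt*, *Sardh* and *Chdh*, all livers labelled hep-/- were below all flox/flox livers by CPM, as was seen in 15.0% of all genes tested. By FPKM this held for *Ahcy* and *Dmgdh* too. In RNA from whole liver, fewer cells of a type and less RNA per cell cannot be told apart.

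**Figure D1:**
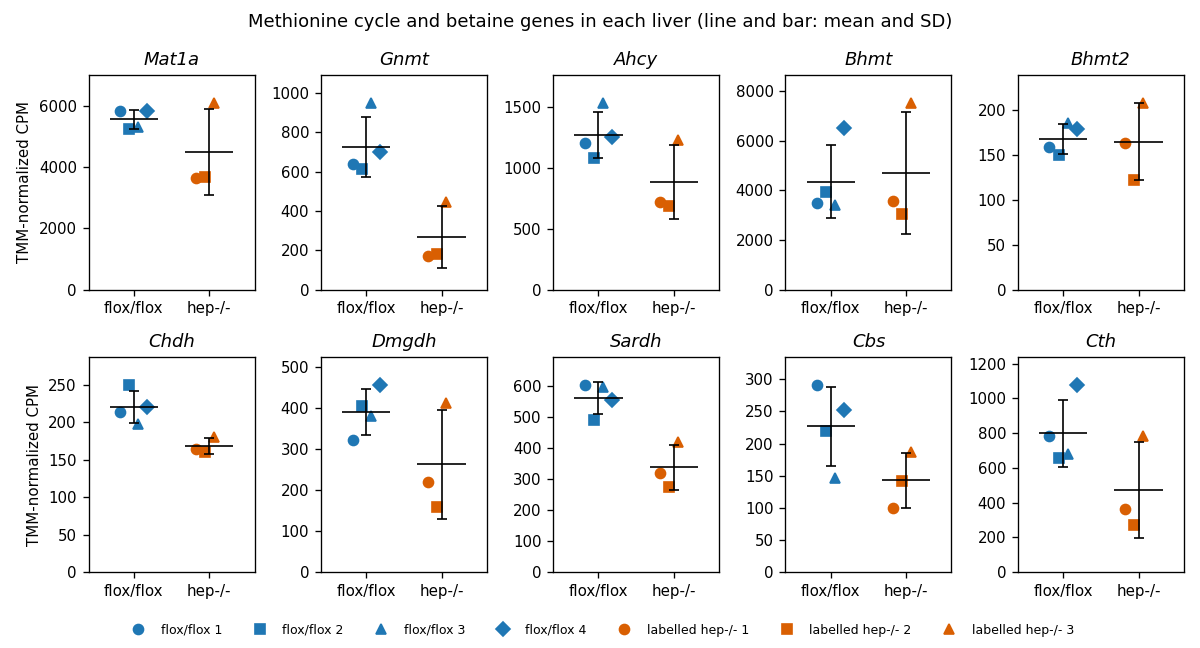
TMM-normalized CPM (vertical axes, linear, from 0, a separate scale for each gene) of the 10 genes in each of 4 flox/flox livers (blue) and 3 livers labelled hep-/- (orange), with the mean as a line and the SD as a bar. Labelled mouse 3 (orange triangle) is the highest of its group in all 10 panels, and the groups do not overlap in *Gnmt*, *Sardh* and *Chdh*.

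Of the genes that make and use S-adenosylmethionine, *Gnmt* differed most. *Gnmt* was at 639, 616, 951 and 699 CPM in flox/flox mice 1 to 4. In labelled mice 1 to 3 it was at 173, 179 and 448 CPM. Each labelled liver was below each control, and labelled mice 1 and 2 were the lowest. The means were 726 ± 154 (SD, n = 4) and 267 ± 157 (SD, n = 3) CPM, a log2 fold change of -1.44 ± 0.346 (SE), that is 63.3% lower (adjusted p = 0.0195, edgeR). The call was lost without labelled mouse 1 (log2 fold change -1.23, adjusted p = 0.0542, edgeR) and without labelled mouse 2 (-1.23, adjusted p = 0.0510, edgeR), and without labelled mouse 3 the log2 fold change was -2.05.

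*Mat1a*, the liver form of the synthase, was among the most abundant transcripts of the pathway and did not pass the test. It was at 5835, 5238, 5325 and 5835 CPM in flox/flox mice. The labelled mice had 3646, 3689 and 6101 CPM. Labelled mice 1 and 2 thus lay below all controls and labelled mouse 3 above all of them. By FPKM, labelled mouse 3, at 1529, was within the range of the controls (1500 to 1901). The log2 fold change was -0.31 (95% interval -0.88 to 0.25, adjusted p = 0.427, edgeR). It was -0.61 (adjusted p = 0.0892, edgeR) without labelled mouse 3, -0.20 without labelled mouse 1 and -0.19 without labelled mouse 2. *Ahcy*, which removes S-adenosylhomocysteine, was at 1201, 1081, 1531 and 1250 CPM in flox/flox mice and at 721, 688 and 1229 CPM in labelled mice. Labelled mouse 3 fell among the controls and the others below them. The log2 fold change of *Ahcy* was -0.52 (95% interval -1.09 to 0.04, adjusted p = 0.182, edgeR), and *Ahcy* was called lower without labelled mouse 3 (log2 fold change -0.85, adjusted p = 0.0367, edgeR).

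The homocysteine methyltransferases *Bhmt* and *Bhmt2* were the members with the smallest differences. *Bhmt*, which uses betaine to rebuild methionine, was at 3481, 3932, 3425 and 6525 CPM in flox/flox mice 1 to 4. The labelled mice 1 to 3 had 3572, 3027 and 7521 CPM. Each group held 1 liver far above the rest, flox/flox mouse 4 and labelled mouse 3, and the spread within groups was wider than the distance between them (log2 fold change 0.12, 95% interval -0.66 to 0.90, adjusted p = 0.847, edgeR). The interval includes falls and rises of more than the 0.58 used for calls. Without labelled mouse 3 the sign of the *Bhmt* difference turned (-0.40, adjusted p = 0.390, edgeR), as it did with limma on log2(FPKM + 1) (-0.07, adjusted p = 0.867). *Bhmt2*, a close relative that prefers S-methylmethionine as its methyl donor, was at 159, 150, 185 and 179 CPM in flox/flox mice and at 164, 122 and 208 CPM in labelled mice. By CPM, labelled mouse 2 lay below all controls, labelled mouse 3 above all of them and labelled mouse 1 among them. The log2 fold change of *Bhmt2* was -0.03 (95% interval -0.50 to 0.44, adjusted p = 0.936, edgeR), and its sign turned without flox/flox mouse 3 (0.02) and without labelled mouse 2 (0.14). The transcripts of *Bhmt* and *Bhmt2* share no run of more than 59 bases in the GENCODE models used here. How reads that fit both genes were counted is not given in the sources used here.

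Among the enzymes that oxidize choline and its products, the last step fell. *Sardh*, which oxidizes sarcosine to glycine, was at 601, 491, 595 and 554 CPM in flox/flox mice. In labelled mice it was at 319, 275 and 418 CPM. All 3 labelled livers were below all controls, and the means were 560 ± 50.6 (SD, n = 4) and 337 ± 73.3 (SD, n = 3) CPM. The log2 fold change of *Sardh* was -0.73 ± 0.214 (SE), that is 39.8% lower (adjusted p = 0.0400, edgeR). The call was lost without flox/flox mouse 1, 2, 3 or 4 and without labelled mouse 1 or 2 (adjusted p from 0.0714 to 0.10, edgeR), while over the 7 fits that left out 1 mouse the log2 fold change stayed between -0.92 and -0.61.

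*Dmgdh*, which acts just before *Sardh*, was at 322, 406, 382 and 456 CPM in flox/flox mice. The labelled mice had 219, 159 and 412 CPM. Labelled mouse 3 lay within the range of the controls and the others below it, and the difference did not pass the test (log2 fold change -0.57, 95% interval -1.23 to 0.08, adjusted p = 0.207, edgeR). *Dmgdh* was called lower without labelled mouse 3 (log2 fold change -1.06, adjusted p = 0.0217, edgeR). Beside it, *Bhmt2*, whose start lies at the other end of the stretch shown above, had a log2 fold change of -0.03, and a difference between the responses of these neighbours was not tested. *Chdh*, which starts the oxidation of choline, was at 213, 249, 198 and 220 CPM in flox/flox mice and at 164, 161 and 180 CPM in labelled mice. All labelled livers were below all controls with a small spread, but the difference of *Chdh* was small too and did not pass (log2 fold change -0.39, 95% interval -0.78 to 0.01, adjusted p = 0.161, edgeR).

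The transsulfuration enzymes, which carry homocysteine to cysteine, had values of similar size that did not pass. *Cbs*, which joins homocysteine to serine, was at 290.5, 219, 146 and 253 CPM in flox/flox mice. The labelled mice had 99.9, 142 and 186 CPM. The lowest control, mouse 3, was below labelled mouse 3, and the log2 fold change was -0.67 (95% interval -1.27 to -0.07, adjusted p = 0.116, edgeR). *Cth*, which releases cysteine from cystathionine, was at 786, 657, 678 and 1075 CPM in flox/flox mice and at 363, 271 and 786 CPM in labelled mice. Labelled mouse 3 was level with flox/flox mouse 1. *Cth* had a log2 fold change of -0.76 (95% interval -1.51 to 0.00, adjusted p = 0.152, edgeR), and it was called lower without labelled mouse 3 (-1.34, adjusted p = 0.0155, edgeR).

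**Figure D2:**
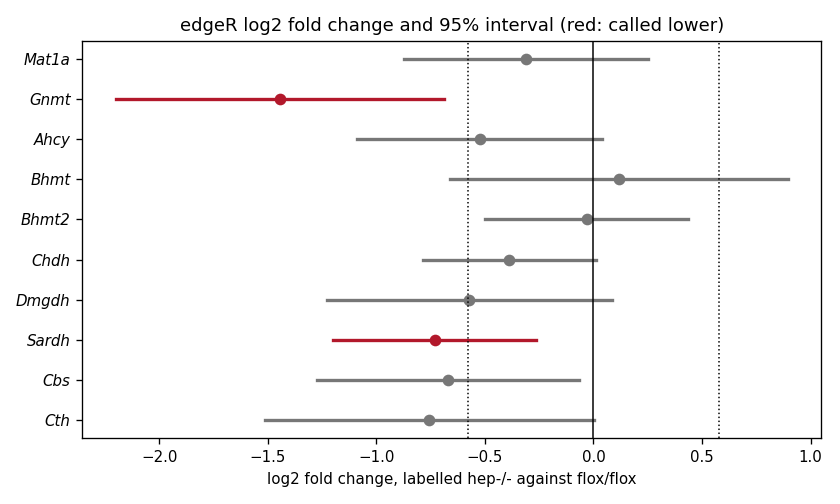
Log2 fold change of each gene in livers labelled hep-/- against flox/flox (horizontal axis, points) with its 95% interval (lines) from edgeR, red where called lower and grey otherwise, and dotted lines at an absolute value of 0.58. The intervals of *Gnmt* and *Sardh* lie below 0, as does that of *Cbs*, which did not pass after adjustment, and that of *Bhmt* reaches from -0.66 to 0.90.

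By CPM, labelled mouse 3 had the highest value of its group in all 10 genes, which was the case in 33.1% of all genes tested and in 62.1% of the genes called lower. By FPKM, *Chdh* was highest in labelled mouse 2 (29.6, beside 26.9 in labelled mouse 3). By CPM, labelled mouse 3 reached or exceeded the lowest control in 7 of the 10 genes, the exceptions being *Gnmt*, *Sardh* and *Chdh*. By FPKM, labelled mouse 3 was also below every control in *Ahcy* (424.9, lowest control 427.0) and *Dmgdh* (121.7, lowest control 123.5). This mouse also had the highest *B4galt1* and, at 14.4%, the lowest mitochondrially encoded share of its group, and the part of either in these values was not tested. Without labelled mouse 3, 5 of the 10 genes were called lower (*Gnmt*, *Sardh*, *Ahcy*, *Cth* and *Dmgdh*), beside 7.51% of all genes tested in that fit, and the median log2 fold change over the 10 genes was -0.89. Without labelled mouse 1, or without labelled mouse 2, 0 were called, beside 5.21% and 3.84% of all genes called lower, with medians of -0.44 and -0.37.

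**Figure D3:**
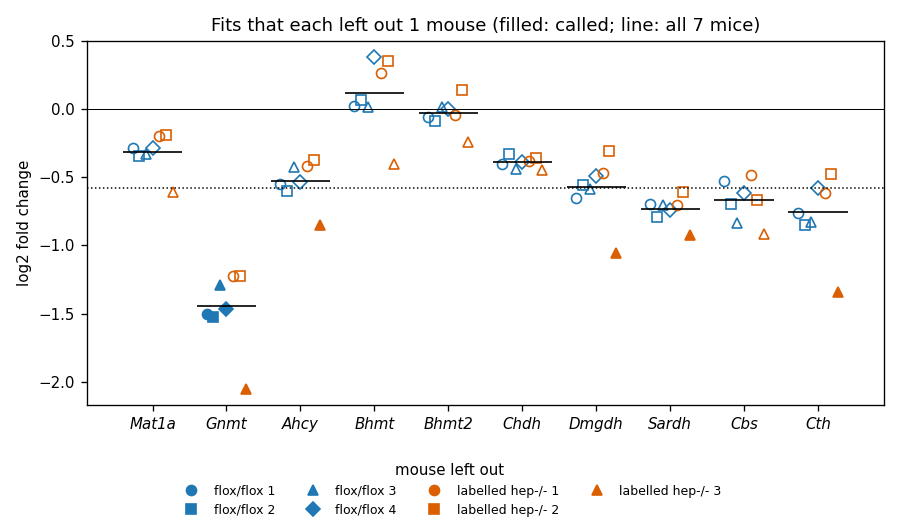
Log2 fold change of each gene (vertical axis) in 7 edgeR fits that each left out 1 mouse, with colour and shape giving the mouse left out, filled symbols for called genes, and a black line for the value from all 7 mice. The fits without labelled mouse 3 (orange triangles) give the lowest value in all 10 genes, and *Sardh* is filled in that fit alone.

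Levels of different genes were compared per transcript length, as FPKM. In flox/flox livers the order was *Bhmt* (2140 ± 542 FPKM, SD, n = 4), *Mat1a* (1649 ± 177 FPKM), *Gnmt* (717 ± 176 FPKM), *Ahcy* (519 ± 99.2 FPKM), *Cth* (453 ± 86.1 FPKM), *Dmgdh* (135 ± 8.42 FPKM), *Sardh* (124 ± 19.9 FPKM), *Cbs* (87.4 ± 26.6 FPKM), *Bhmt2* (83.7 ± 9.96 FPKM) and *Chdh* (38.8 ± 3.72 FPKM). Over the 4 mice, the ranges of neighbours in this order overlapped except between *Mat1a* and *Gnmt*, between *Cth* and *Dmgdh*, and between *Bhmt2* and *Chdh*. In livers labelled hep-/- *Bhmt* (2112 ± 936 FPKM, SD, n = 3) and *Mat1a* (1203 ± 300 FPKM) again came first and *Chdh* (27.2 ± 2.26 FPKM) last. *Gnmt* was at 235 ± 121 FPKM, with *Ahcy* at 325 ± 88.6 and *Cth* at 241 ± 121 FPKM now above it, within overlapping ranges.

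The make-up of the pathway was described by each gene's share of the summed FPKM of the 10 genes, a quantity that does not depend on the library's total. *Gnmt* held 11.4%, 11.2%, 16.4% and 9.39% of the sum in flox/flox mice 1 to 4. It held 4.43%, 5.06% and 5.94% in labelled mice 1 to 3, and so was lower in all 3 of these mice, labelled mouse 3 included. The shares of *Cth* (6.81% to 8.39% in flox/flox and 4.45% to 6.05% in labelled livers) and *Dmgdh* (2.04% to 2.62% and 1.59% to 1.99%) did not overlap either and were lower too. *Bhmt* held 31.7%, 36.5%, 30.2% and 44.7% of the sum in flox/flox mice and 46.7%, 43.6% and 50.9% in labelled mice. Its share overlapped between groups through flox/flox mouse 4. The share of *Mat1a* was 27.9% ± 3.21 (SD, n = 4) in flox/flox and 28.0% ± 3.50 (SD, n = 3) in labelled livers. These shares were not tested.

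Ratios of enzymes that compete for, or replace, one another were compared as log2 ratios of FPKM by a two-sided exact permutation test, whose smallest p with 4 against 3 mice is 0.0286. *Mat2a* encodes the synthase that other tissues and growing hepatocytes use. The log2 ratio of *Mat1a* to *Mat2a* was 5.57, 4.80, 5.03 and 5.44 in flox/flox mice and 5.95, 6.12 and 5.54 in labelled mice. The groups overlapped through labelled mouse 3, and the difference in means of 0.66 did not pass (exact p = 0.0857, 0.257 after adjustment over 3 ratios). *Mtr*, the folate-dependent methionine synthase, was listed at 0.219 to 0.556 FPKM, so the ratio of *Bhmt* to *Mtr* rests on 74 to 215 counts of *Mtr* per liver. This log2 ratio was 12.5 ± 0.821 (SD, n = 4) in flox/flox and 12.7 ± 0.974 (SD, n = 3) in labelled livers (exact permutation p = 0.771, 0.83 adjusted). That of *Bhmt* to *Bhmt2* was 4.65 ± 0.417 (SD, n = 4) and 4.76 ± 0.378 (SD, n = 3), with an exact permutation p of 0.83 (0.83 adjusted). Both highest values of the *Bhmt* to *Bhmt2* ratio, 5.20 and 5.19, were those of flox/flox mouse 4 and labelled mouse 3.

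Genes of the neighbouring pathways were taken from 7 lists. The lists of folate genes and of choline entry and betaine synthesis are given in part, trimmed after the values had been seen, so no total over the lists is read against all genes and these 2 lists get no median. Of the 18 folate genes reported here, 3 fell and 0 rose by edgeR, while DESeq2 called 4 lower and 2 higher, and 0 were called by edgeR without labelled mouse 2. The genes that fell were *Mthfd1* (-0.85, adjusted p = 0.0195, edgeR) and *Shmt1* (-0.64, adjusted p = 0.0410, edgeR), cytosolic enzymes that interconvert one-carbon folates, and *Folr2* (-1.21, adjusted p = 0.0312, edgeR), a folate receptor of macrophages. *Mthfd1* was at 165 to 182 CPM in flox/flox and 75.1 to 120 CPM in labelled livers, and *Shmt1* at 104 to 126 and 59.8 to 83.5 CPM, neither with overlap. *Mthfd1* was not called without flox/flox mouse 2 or labelled mouse 1 or 2, *Folr2* not without flox/flox mouse 3 or 4 or labelled mouse 2 or 3, and *Shmt1* in no fit that left out 1 mouse other than that without labelled mouse 3.

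Of 8 genes of glycine cleavage and electron transfer, 1 fell and 0 rose (median log2 fold change -0.24, and -0.05 to -0.40 leaving out 1 mouse at a time, the ends being without labelled mouse 2 and labelled mouse 1). Of all genes tested, edgeR called 7.83% lower, DESeq2 10.3% and limma on log2(FPKM + 1) 15.9%. Of these 8 genes, DESeq2 called 3 lower, and limma on log2(FPKM + 1) also 3. The 1 gene called by edgeR was *Etfdh*, the enzyme that passes the electrons of DMGDH and SARDH on to the respiratory chain. *Etfdh* was at 300, 418, 412 and 305 CPM in flox/flox mice and at 108, 80.8 and 203 CPM in labelled mice. The groups did not overlap and the log2 fold change was -1.46 ± 0.309 (SE), adjusted p = 0.0123 by edgeR.

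Of the 8 genes reported here for the entry of choline and the making of betaine, 2 fell. *Slc25a48*, a mitochondrial choline carrier, was at 3.56 to 4.76 CPM in flox/flox and 0.357 to 1.39 CPM in labelled livers (-1.96 ± 0.447 (SE), adjusted p = 0.0164, edgeR), and it was counted as few as 11 times in a liver. *Aldh7a1*, which can oxidize betaine aldehyde to betaine, was at 274 to 314 CPM in flox/flox and 93.6 to 185 CPM in labelled livers (-1.13 ± 0.243 (SE), adjusted p = 0.0128, edgeR). Neither overlapped between groups.

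Of 12 genes listed around cysteine, sulfur and carnitine, 2 fell and 0 rose (median log2 fold change -0.32), namely *Suox*, which oxidizes sulfite (-1.41, adjusted p = 0.0106, edgeR), and *Bbox1* (-1.05, adjusted p = 0.0261, edgeR), which makes carnitine and not a sulfur compound. *Hnmt*, which methylates histamine, was the 1 of 10 S-adenosylmethionine-dependent methyltransferases that fell (-1.20, adjusted p = 0.0261, edgeR; median of the list -0.27), and *Odc1*, which starts polyamine synthesis, the 1 of 12 in methionine salvage and polyamine metabolism (-1.26, adjusted p = 0.0182, edgeR; median of the list -0.25). No gene of these 2 lists rose. The edgeR counts of these lists stand beside 7.83% of all genes tested that were called lower. Without labelled mouse 3, 4 genes of the first list and 3 of the methyltransferases were called lower, beside 7.51% of all genes tested. DESeq2 called 4 and 2, beside 10.3% of all genes, and limma on log2(FPKM + 1) 4 and 3, beside 15.9%. Between the fits without labelled mouse 2 and without labelled mouse 3, the median moved from -0.16 to -0.50 in the first list, from -0.11 to -0.56 in the methyltransferases and from -0.11 to -0.43 in the salvage and polyamine genes. *Bbox1* was not called without flox/flox mouse 2, 3 or 4 or labelled mouse 2, and *Hnmt* not without flox/flox mouse 2 or 3 or labelled mouse 2. Of the 4 related isoforms (*Mat2a*, *Mat2b*, *Ahcyl1*, *Ahcyl2*) 0 were called in either direction by edgeR, with a median of -0.56, while limma on log2(FPKM + 1) called 2 lower. *Mat2a* was at 118 to 181 CPM in flox/flox and 51.2 to 126 CPM in labelled livers (-0.91, adjusted p = 0.0669, edgeR) and was called lower without labelled mouse 3 (-1.45, adjusted p = 0.00805, edgeR), with DESeq2 (-0.90, adjusted p = 0.0216) and with limma on log2(FPKM + 1) (-1.10, adjusted p = 0.0136). Of the list genes named here, *Etfdh*, *Suox*, *Slc25a48*, *Aldh7a1* and *Odc1* were called in each of the 7 fits that left out 1 mouse.

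**Figure D4:**
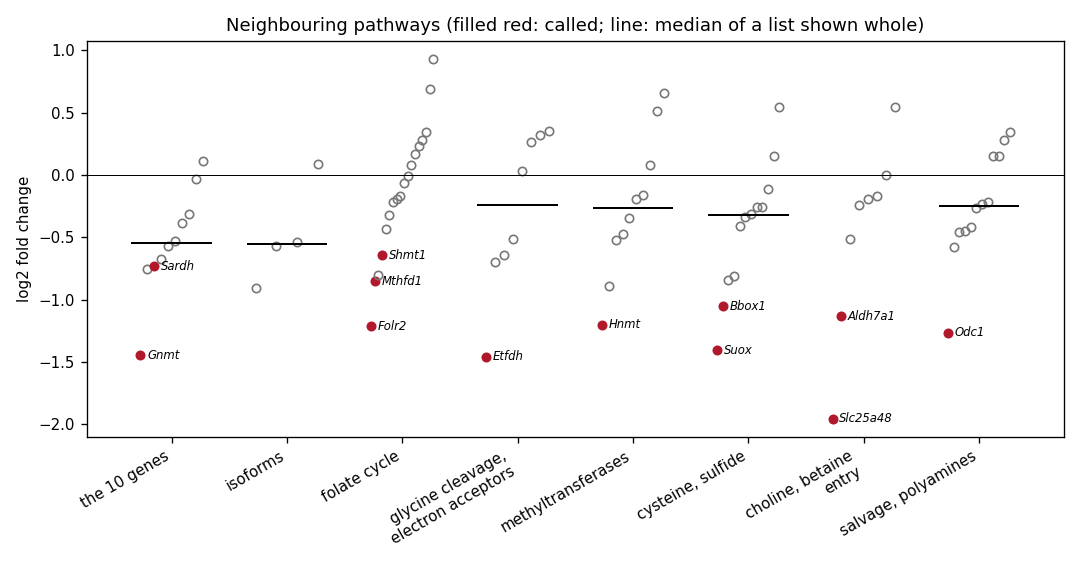
Log2 fold change in livers labelled hep-/- against flox/flox (vertical axis) of the 10 genes and of the 7 lists of neighbouring pathways, 1 point per gene, filled red and named where called, with a line at the median of each list shown whole. *Gnmt*, *Etfdh*, *Suox* and *Slc25a48* lie below -1.40.

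Markers of liver cell types were read beside these results. Of all genes tested, edgeR called 7.83% lower and 8.00% higher, DESeq2 10.3% and 11.3%, and limma on log2(FPKM + 1) 15.9% and 5.14%. Of 8 hepatocyte markers, 0 were called in either direction (median log2 fold change 0.19, and -0.11 without labelled mouse 3), 1 was called lower without flox/flox mouse 1, 2 lower with limma on log2(FPKM + 1) and 1 higher with DESeq2, and their summed level was 77114 to 117754 CPM in flox/flox and 94203 to 148886 CPM in labelled livers. Of 8 pericentral hepatocyte markers, 5 were called lower and 0 higher (median -1.31; 6 and -1.55 without labelled mouse 3), among them *Rhbg* (-2.02), *Oat* (-1.76), *Slc1a2* (-1.57) and *Cyp2e1* (-1.32), and their sum was 11147 to 12639 CPM in flox/flox and 3011 to 6467 CPM in labelled livers, without overlap. Of 8 periportal markers, 0 were called (median -0.42), but 3 were called lower without labelled mouse 3 (median -0.70) and with limma on log2(FPKM + 1), with sums of 10600 to 13089 CPM and 7205 to 12326 CPM. Of 6 macrophage markers, 4 were called lower and 0 higher (median -0.99), namely *Adgre1* (-1.88), *Marco* (-1.24), *Cd68* (-1.15) and *Trem2* (-0.83), with sums of 335 to 588 CPM and 214 to 257 CPM, and 2 were called without flox/flox mouse 2, without flox/flox mouse 3 or without labelled mouse 3. In the endothelial list 1 of 5 markers was called lower, *Kdr* (-1.33, median of the list -0.66), with sums of 64.8 to 259 CPM and 85.2 to 106 CPM. No endothelial marker was called lower without flox/flox mouse 3 or 4 or labelled mouse 1, 2 or 3, and without flox/flox mouse 3 the median turned to 0.54 and 1 marker was called higher. No marker was called by edgeR among 6 of stellate cells (sums of 588 to 972 and 591 to 820 CPM), 5 of cholangiocytes (253 to 656 and 259 to 870 CPM) and 5 of lymphocytes (7.60 to 17.8 and 11.2 to 21.0 CPM), with medians of -0.03, 0.28 and 0.21, whose signs turned in some fits that left out 1 mouse. DESeq2 called 1 of the lymphocyte markers higher. None of these markers was at 0 in any liver. The part of the pericentral and macrophage markers, and of the mitochondrially encoded share, in the differences of *Gnmt*, *Sardh* and the other genes was not tested.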

How the data were processed

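RNA from the livers of 7 mice was analysed, 4 *B4galt1* flox/flox and 3 labelled *B4galt1* hep-/-, grouped by the sample labels. The authors deposited raw counts per gene and mouse, whole numbers that were not normalized, and FPKM values of the same genes and mice. The submitters' processing notes name fastp, HISAT2, HTSeq, DESeq2, R 3.2.0 and the build GRCm39, and versions of the other tools are not given in the sources used here. In the 13374 genes with 10 or more counts in each mouse, each FPKM value was the count over the library total and over 1 length per gene.

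Genes were kept by filterByExpr (minimum count 10, minimum total 15), which left 15179 of 23347. After TMM normalization, edgeR 4.0.16 (R 4.3.3) gave quasi-likelihood tests of the group, adjusted by Benjamini-Hochberg. Calls took the thresholds of the study, an adjusted p below 0.05 and a log2 fold change beyond 0.58 in size, with edgeR in place of its DESeq2. The log2 ratios of FPKM were compared by exact permutation tests. The fit was also run on simulated counts with the same variability for all genes and no divergent mouse. That is a simpler setting than these data. Alternatives were DESeq2 1.42.0, other normalizations and filters, limma 3.58.1 on log2 FPKM with 1 or 0.1 added, a replicate block, and leaving out each mouse. Libraries are separate mice, and the tests set the difference between groups against the variation between mice.

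The 10 genes, the lists and the tests were chosen with earlier results of these data known. All 10 genes were named, *B4galt1* as the check of the labels, *Mat2a* and *Mtr* for ratios, and from each list at most 4 called genes with the largest change. Some genes of the folate and choline lists are not reported here and were left out after the values had been seen. Sequences came from RefSeq (GRCm38.p6), not the build of the files, and were matched by symbol. The text gives no other coordinates. The transcripts of *Bhmt* and *Bhmt2* came from GENCODE.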

Additional observations from a re-analysis of the deposited data

Results flagged for a closer look

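Within the flox/flox group, *Bhmt* in mouse 4, at 6525 CPM, stood apart from the other 3 mice (3425 to 3932 CPM): its distance to the nearest of them was 0.836 of the whole range, above Dixon's 95% critical value for 4 samples. This was the 1 such value among 27 measures examined in that group, and chance gives about 1 in 20. Without flox/flox mouse 4 the log2 fold change of *Bhmt* was 0.38 and was not called.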

How the results depend on the processing

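Across all alternatives, 367 of 441 recomputed values kept their direction and their side of the threshold or, for counts of calls, stayed within 1.5 times, 44 lost a call or fell below that range, 20 gained a call or rose above it, and 10 changed sign. On FPKM, limma with either added constant called 5 of the 10 genes lower (*Gnmt*, *Sardh*, *Ahcy*, *Cth* and *Dmgdh*), beside 15.9% (constant 1) or 17.8% (constant 0.1) of all genes, and gave *Bhmt* a log2 fold change of -0.0741, with the median of all genes moved by -0.12 or -0.13, and 24.5% or 23.6% of the called genes were higher, against 50.5% in the edgeR fit. FPKM is divided by a total that includes the mitochondrially encoded genes. DESeq2, the other normalizations and filters, adjusted p alone and leaving out the 13 mitochondrially encoded genes left the count of the 10 genes at 2 lower. Beside it, the share of all genes called lower ran from 5.93% (at least 1 count in any mouse) to 10.3% (DESeq2). Leaving out 1 mouse at a time, the number of the 10 genes called lower ranged from 0 to 5, beside 3.16% to 7.51% of all genes tested. The genes called in all ranged from 885 (without flox/flox mouse 2) to 2396 (without flox/flox mouse 1), beside 2404. The log2 fold change of *Bhmt* ranged from -0.40 to 0.38 and turned negative without labelled mouse 3, that of *Bhmt2* from -0.24 to 0.14, turning positive without flox/flox mouse 3 (0.02) or labelled mouse 2, and that of *Mtr* from -0.32 to 0.04, turning positive without flox/flox mouse 3 (0.0437). The difference in the log2 ratio of *Bhmt* to *Mtr* ranged from -0.35 to 0.58 and turned negative without flox/flox mouse 3 (-0.10) or labelled mouse 3 (-0.35). That of *Bhmt* to *Bhmt2* ranged from -0.10 to 0.29 and turned negative without the same mice (-0.03 and -0.10). The cause of these changes was not tested.

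Replicate numbers are shared by the groups, but nothing in the labels pairs the mice, and the deviations of same-numbered mice correlated at -0.49, -0.15 and 0.11. With the replicate block, 1267 genes were called (615 lower, or 4.05% of all genes tested, and 652 higher) and 1 of the 10 genes, *Gnmt*, while *Sardh* was not (log2 fold change -0.75, adjusted p = 0.137), and neither were *Mthfd1* (-0.85, adjusted p = 0.0828), *Shmt1* (-0.61, adjusted p = 0.197) and *Bbox1* (-1.07, adjusted p = 0.0545). Each of the 10 genes had at least 3078 counts in every liver, and the biological coefficient of variation over all genes was 0.301.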
